A study of Rattus norvegicus with 458 samples.

Results

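The microRNAs miR-183, miR-96 and miR-182, which are made from a cluster of neighbouring hairpins, were followed through 23 tissues of the Sprague Dawley rat. Members were taken by name alone: a name in the count table counted as a member when it, or a part of a composite name, was miR-183, miR-96 or miR-182 with either arm suffix or with none, and names of whole precursors were left out. Of the 7534 names in the table, 10 met this rule, and 3 of them, miR-183-5p, miR-96-5p and miR-182, held 99.9% of the 4446423 counts of the cluster. The animals were naive rats aged 12 to 13 weeks, 5 male and 5 female, with no treatment and no difference in genotype between the groups. In 19 tissues there was a library from each of the 10 rats, the testis came from the 5 males, and the ovary and uterus came from the 5 females. Dorsal root ganglion was different: its RNA was a male and a female pool, each sequenced as 5 technical libraries that were summed here, so its n is 2 pools and the gap between the pools is not the spread between rats. The ganglion RNA was also supplied by a company, Takeda, while the RNA of the other tissues was isolated in the study, so in every contrast with the ganglion the tissue and the source of the RNA cannot be told apart. The samples were whole tissues, in which fewer cells of a type and less RNA per cell cannot be told apart.

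The cluster is transcribed as a shared primary transcript and is best known from sensory organs, where hair cells of the inner ear, photoreceptors and sensory neurons contain large amounts of all its members. The dorsal root ganglion holds the cell bodies of the sensory neurons that bring touch, pain and body position to the spinal cord and brainstem. A mature microRNA finds its targets mainly through its seed, bases 2 to 8 counted from the 5′ end, so members with different seeds are predicted to bind different messenger RNAs even when they are made together.

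The mature sequences show how closely related the members are, and they are printed 5′ to 3′ from RefSeq with the seed in capitals.
miR-183-5p: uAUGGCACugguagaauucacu
miR-96-5p: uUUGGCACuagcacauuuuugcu
miR-182: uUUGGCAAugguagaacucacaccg
Counted from the 5′ end, the seeds of miR-96-5p and miR-182 differ by C8A and those of miR-96-5p and miR-183-5p by U2A, while miR-183-5p and miR-182 differ at both of these positions. Outside the seed the closest pair was miR-183-5p and miR-182, which had the same base at 13 of 15 positions, against 6 of 16 for miR-96-5p and miR-182 and 7 of 15 for miR-96-5p and miR-183-5p, compared from the 5′ end without gaps. None of the 3 seeds was found in any other of the 693 mature rat names searched. In the GRCr8 build the hairpins lie on the minus strand of chromosome 4, Mir183 at 59756044 to 59756153, Mir96 at 59755841 to 59755946 and Mir182 at 59752246 to 59752307. Mir183 and Mir96 are 97 bases apart, Mir96 and Mir182 are 3533 bases apart, and the whole cluster spans 3908 bases between the protein-coding genes Nrf1 and Ube2h, with the hairpin gene Mir3553 overlapping the span.

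The total count of a library was 4816409 at the median, from 376401 in the smallest to 17725805 in the largest. The labels were checked against the whole profile of each library, and 10 of the 215 libraries correlated better with another tissue than with their own by more than 0.05 in r, the smallest of these gaps being 0.0669 and the next one down 0.0194. They were the duodenum of rats 2, 4, 7 and 11, the hippocampus of rats 2, 6 and 7, the adrenal of rat 8, the ovary of rat 11 and the uterus of rat 8. The members followed the profile in these libraries: in the duodenum of rats 2, 4 and 7, whose nearest tissues were cerebrum and hippocampus, miR-182 was at 31.6, 65.7 and 36.5 CPM (counts per 1000000 counts of the library), against 2978 to 3701 CPM in the 6 duodenum libraries that were in place. In the hippocampus of rats 2, 6 and 7, whose nearest tissues were uterus, duodenum and ovary, miR-182 was at 823, 3047 and 1926 CPM, against 36.2 to 121 CPM in the other 7. All libraries were kept under their labels in the tests. For some results values are given without these 10, and for others only without these 10 and 2 more libraries described below. The microRNAs listed as markers of liver, heart, skeletal muscle, pancreas, intestine, red cells and gonad were each highest in the tissue they mark, among them miR-122-5p in liver with 33952 CPM and miR-208a-3p in heart with 463 CPM. Those of neurons, oligodendrocytes and squamous epithelium were highest in cerebellum, brainstem and non-glandular stomach. Those of simple epithelium were highest in pancreas or ileum, and that of smooth muscle in glandular stomach. Of the endocrine markers, miR-375-3p was highest in pancreas, but miR-7a-5p was highest in hippocampus (234 CPM) and then cerebrum (188 CPM).

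In CPM, dorsal root ganglion had the highest level of every main member. miR-182 was at 63300 CPM in the male pool and 66730 CPM in the female pool, which made it the 6th most abundant of all 7534 names there. miR-183-5p was at 14004 and 14139 CPM and ranked 14th, and miR-96-5p was at 169 and 164 CPM and ranked 133rd. The pools therefore differed little, and each lay above every sample of the other 22 tissues, in which the highest values were 8755 CPM for miR-182, 1066 CPM for miR-183-5p and 136 CPM for miR-96-5p. The cluster took 7.75% of all counts in the male pool and 8.10% in the female pool, against at most 0.963% in any other sample. The technical libraries of a pool were spread more widely than the pools, with miR-182 between 43214 and 76489 CPM in the male and between 59575 and 76387 CPM in the female libraries. Even the lowest technical library was thus above every sample of another tissue for miR-182, and for miR-183-5p, whose technical libraries ran from 11866 to 14987 CPM, the same held. For miR-96-5p it did not, because the technical libraries ran from 127 to 197 CPM.

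**Figure D1:**
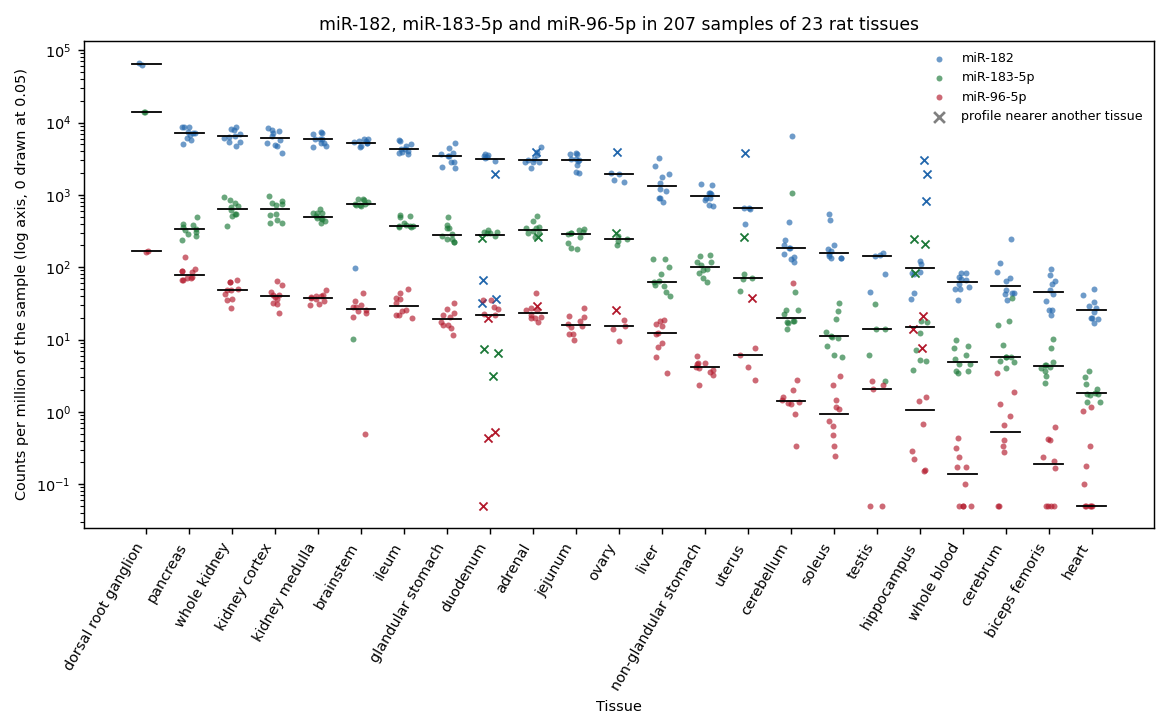
Level of miR-183-5p, miR-96-5p and miR-182 in every sample, in CPM on a log axis. Tissues are in the order of their median miR-182 without the libraries nearer to another tissue, which are drawn as crosses. Black lines mark the median of all samples of a tissue, and a value of 0 is drawn at 0.05. Both ganglion pools sit above all other samples for each member. Heart, muscle, blood, testis, cerebrum and the hippocampus libraries in place lie at the low end.

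Against the mean of the other 22 tissues on the log scale, the rise in dorsal root ganglion was 5.88 ± 0.38 (log2 fold change ± SE) for miR-183-5p, with an adjusted p of 1.00e-32. It was 4.67 ± 0.45 for miR-182, with an adjusted p of 2.77e-18, and 3.23 ± 0.60 for miR-96-5p, with an adjusted p of 3.93e-06 (edgeR quasi-likelihood test with Benjamini-Hochberg adjustment over the 1641 names tested). The spread in this fit was estimated over all 23 tissues together. With 2 pools, the SE and p of any contrast with the ganglion do not measure the spread between rats in the ganglion. All 3 members were called, against 13.3% of all names that were called higher in this tissue, and the median change of all names there was -0.57 (-0.03 under TMM scaling and -0.43 under DESeq2). The minor names of the cluster that were counted often enough to test followed: miR-183-3p, the opposite arm of the miR-183 hairpin, was at 34.7 and 28.3 CPM in the pools with 4.37 CPM in kidney cortex as the next highest mean, and rose by 4.29 ± 0.50 (adjusted p 3.23e-13). The composite name miR-182;miR-182-5p and the name miR-182-5p, both at about 6 CPM in the pools, were called higher too (log2 fold changes of 3.09 and 2.45). The other 4 names, with between 1 and 158 counts in the whole series, did not pass the filter on low counts. The calls of the 3 main members in the ganglion were kept under each of the 21 alternatives run for each, with log2 fold changes from 5.63 to 6.58 for miR-183-5p, from 4.38 to 5.37 for miR-182 and from 3.02 to 3.93 for miR-96-5p. The split of all names in this comparison depended on scaling, with 218 higher and 62 lower names under upper-quartile scaling, 319 and 28 under TMM and 187 and 101 under DESeq2.

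The drop from the ganglion to the next tissue was not the same for the 3 members. For miR-183-5p the next tissue was the brainstem, with a mean of 702 CPM, and the ganglion mean of 14071 CPM was 20.04-fold higher. For miR-182 it was the pancreas, with 7128 CPM against 65015 CPM, a 9.12-fold step. For miR-96-5p it was also the pancreas, with 84.1 CPM against 166 CPM, a 1.97-fold step, and the highest pancreas sample (136 CPM in rat 4) lay closer to the ganglion pools than to the pancreas median of 79.0 CPM. In the fitted contrasts of a tissue with the next one down, the step of miR-183-5p passed the threshold (log2 fold change 5.04, adjusted p 3.86e-08 in edgeR), and the steps of miR-182 (1.87, adjusted p 0.0799) and miR-96-5p (-0.33, adjusted p 0.877) did not. These contrasts were scaled to the third quartile of the counts of a library rather than to its total, and the 2 scales can order tissues differently. The fit went against the CPM order between brainstem and ileum, whose mean miR-182 was 4786 and 4519 CPM. Their fitted difference was -2.55 (adjusted p 3.68e-05 in edgeR). It also did between brainstem and whole kidney for miR-183-5p, with 702 and 651 CPM but -2.31 (adjusted p 0.000176). The cause of these reversals was not tested. Among the 22 neighbours in the order of mean CPM, 9 differed in miR-183-5p, 5 in miR-96-5p and 7 in miR-182, of which 3, 1 and 2 differed against the CPM order, while 33.6%, 33.8% and 34.7% of all names were called over the same sets of contrasts.

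**Figure D2:**
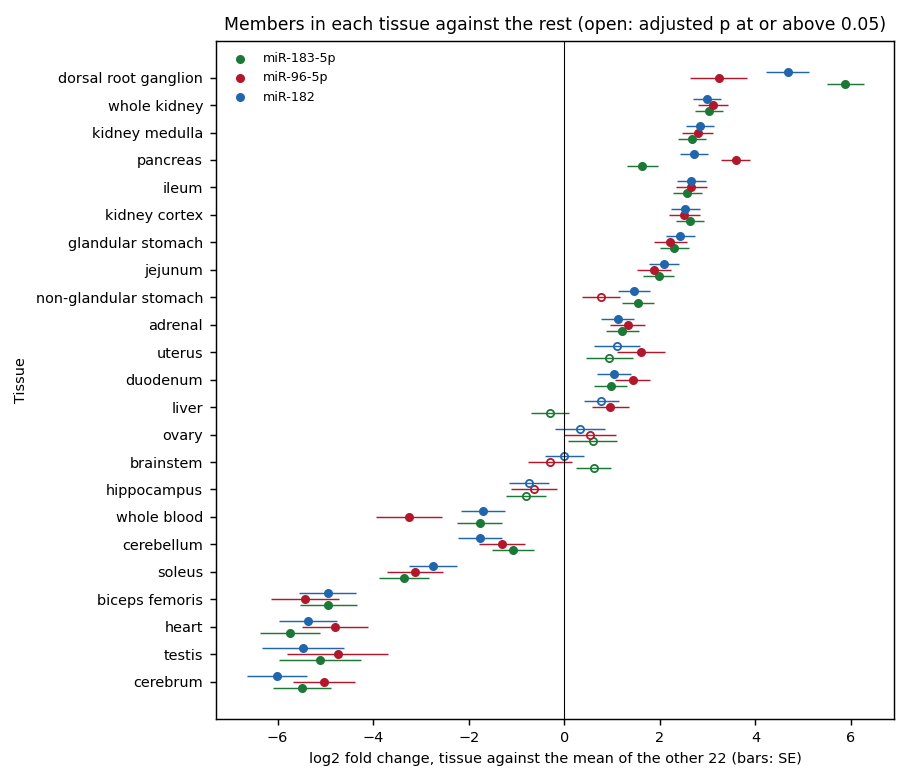
Fitted log2 fold change of each member, a tissue against all 22 others on the log scale, with bars for the standard error and open symbols where the adjusted p was 0.05 or more. Dorsal root ganglion is at the top for miR-183-5p and miR-182, and pancreas is at the top for miR-96-5p, at 3.58. Cerebrum, testis, heart and biceps femoris are at the bottom.

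Outside the ganglion the cluster was high in kidney, pancreas and gut. miR-182 ran from 4769 to 8661 CPM in whole kidney with a median of 6451, and the cortex (mean 6161 CPM) and medulla (5900 CPM) taken apart were as high. In the pancreas miR-182 ran from 5072 to 8755 CPM with a median of 7184, and in the ileum from 3679 to 5763 CPM with a median of 4318. Glandular stomach, adrenal, jejunum and the 6 duodenum libraries in place followed, with miR-182 means of 3450, 3315, 2996 and 3379 CPM. miR-183-5p had means of 651 CPM in whole kidney, 416 CPM in ileum, 344 CPM in adrenal and 340 CPM in pancreas, and miR-96-5p had 47.8, 31.2, 25.2 and 84.1 CPM in the same tissues. Low tissues were also shared: in heart the means were 28.1 CPM for miR-182, 2.09 CPM for miR-183-5p and 0.281 CPM for miR-96-5p. Biceps femoris (miR-182 at 49.4 CPM), whole blood (62.1 CPM) and cerebrum (79.0 CPM) were nearly as low. miR-96-5p had a count of 0 in 5 of 10 heart, 4 of 10 blood and 4 of 10 biceps libraries, so its order among these tissues could not be set at this depth: a count of 0 there allows up to 1.00 CPM, a limit for counting error only.

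Over the 69 pairs of a member and a tissue, 34 (49.3%) were called higher than the rest and 21 (30.4%) lower, against 23.4% and 11.3% of all names and tissues. The number of tissues called higher was 11 for miR-183-5p, 12 for miR-96-5p and 11 for miR-182, and the number called lower was 7 for each. All 3 members were higher in the ganglion, whole kidney, kidney cortex, kidney medulla, ileum, glandular stomach, pancreas, jejunum, adrenal and duodenum, and all 3 were lower in heart, both muscles, testis, whole blood, cerebrum and cerebellum. The call of miR-96-5p in testis rests on a count of 0 or 1 in each library, and a count of 0 there allows up to 6.19 CPM. In whole kidney the log2 fold changes were 3.03, 2.99 and 3.11 for miR-183-5p, miR-182 and miR-96-5p, each below that of the ganglion. In pancreas they were 1.63, 2.72 and 3.58, and the value of miR-96-5p was above that of the ganglion, unlike in CPM. The members parted in a few tissues. In the non-glandular stomach miR-183-5p (1.54) and miR-182 (1.45) were called and miR-96-5p was not (0.76, adjusted p 0.138; 1.06 and 0.0250 with each rat as a block). In liver (0.96, adjusted p 0.0362) and uterus (1.60, adjusted p 0.0136) miR-96-5p alone was called, but the uterus call ended without the libraries out of place and the 2 libraries described below (0.80, adjusted p 0.0993), and in liver the call ended with each rat as a block (0.83, adjusted p 0.0821) and the sign turned under DESeq2 (-0.058, adjusted p 0.933). With each rat as a block the fall of miR-183-5p in cerebellum, -1.07 otherwise, also lost its call (-1.04, adjusted p 0.0625). The size of the cerebellum changes rested on rat 10: with it they were -1.07, -1.77 and -1.30 for miR-183-5p, miR-182 and miR-96-5p, and without it -3.62, -3.91 and -3.75. Without the 10 libraries out of place 36 pairs were higher and 24 were lower. Without all 12, those 10 and the 2 described below, 38 pairs were higher and 24 were lower. The set of 12 was chosen after the data, including the members of these 2, were seen. The hippocampus, which had not been called, was called lower without the 12, with log2 fold changes of -5.36, -5.70 and -5.29 for miR-183-5p, miR-182 and miR-96-5p. In duodenum, which has libraries out of place, miR-182 ran from 0.82 to 2.06 over the 22 alternatives.

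The nervous system held the widest contrast. In the brainstem of 9 of the 10 rats miR-182 ran from 4574 to 5850 CPM and miR-183-5p from 698 to 876 CPM, both overlapping the range of whole kidney. In the cerebellum of 9 rats miR-182 ran from 119 to 415 CPM, in the 7 hippocampus libraries in place from 36.2 to 121 CPM, and in the cerebrum from 35.3 to 244 CPM. The brainstem therefore did not overlap any other brain region, apart from 1 brainstem and 1 cerebellum library. The brainstem of rat 9 had 98.0 CPM of miR-182, 10.2 CPM of miR-183-5p and 0.498 CPM of miR-96-5p, below all other brainstem samples, while the cerebellum of rat 10 had 6521, 1066 and 61.2 CPM, above all other cerebellum samples. The brainstem of rat 9 also had 728 CPM of miR-10a-5p and 766 CPM of miR-10b-5p, microRNAs of the Hox clusters of the hindbrain and spinal cord, against at least 9684 and 9701 CPM in the other 9. Its profile correlated best with brainstem, 0.0046 in r above cerebrum. The cerebellum of rat 10 also had 239 CPM of miR-211-5p against 1.60 to 7.25 CPM in the other 9. Its runs of the first and of the other flow cells gave 6521 and 6520 CPM of miR-182. What set these 2 libraries apart was not tested.

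**Figure D3:**
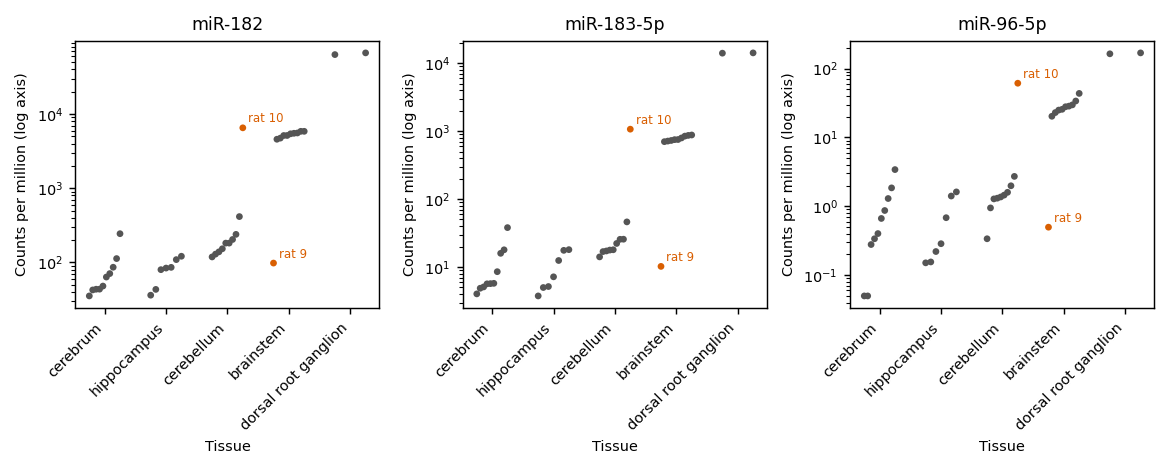
Level of each member in CPM on a log axis in cerebrum, hippocampus (7 libraries in place), cerebellum, brainstem and the 2 pools of dorsal root ganglion, with the brainstem of rat 9 and the cerebellum of rat 10 in orange. The ganglion pools are highest, 9 of 10 brainstem samples come next, and the remaining brain samples other than the cerebellum of rat 10 are lower.

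Dorsal root ganglion exceeded the mean of the 4 brain regions by a log2 fold change of 7.24 ± 0.48 for miR-183-5p, 6.51 ± 0.49 for miR-182 and 4.83 ± 0.58 for miR-96-5p, each with an adjusted p of at most 1.08e-12, where 18.2% of all names were called in either direction. Without the 12 libraries the differences were 9.02, 8.29 and 6.62. The cerebellum and the mean of the other 3 brain regions were not separated, with log2 fold changes of 0.78 (adjusted p 0.168), 0.46 (0.483) and 0.66 (0.309) for miR-183-5p, miR-182 and miR-96-5p in edgeR, where 27.3% of names were called. This contrast rested on single libraries. It became 2.35, 2.17 and 2.26 and was called without the libraries out of place, it turned to -1.79, -1.70 and -1.78 and was called without rat 10, and it was -0.23, -0.0021 and -0.20 and not called without all 12 libraries. In brainstem against the other 22 tissues none of the members was called, with 0.62, -0.0039 and -0.30 for miR-183-5p, miR-182 and miR-96-5p, although miR-183-5p was called with each rat as a block (0.95, adjusted p 0.0143). Without the 12 libraries miR-183-5p was 1.10 and miR-182 was 0.51 there. The 12 leave out the brainstem of rat 9, whose low members had been seen, so no call is drawn from these values. Under TMM scaling with all libraries miR-183-5p and miR-182 were 1.54 and 0.92 and were called higher. The median of all names in brainstem was -0.91 under the scaling used here, -0.35 under TMM and -0.37 under DESeq2.

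Within the stomach the glandular part, which is lined by simple secretory epithelium, had 2328 to 5234 CPM of miR-182 and the non-glandular part, lined by squamous epithelium, had 696 to 1413 CPM, with no overlap. The fitted differences were 0.93, 0.73 and 1.39 for miR-182, miR-183-5p and miR-96-5p, and none passed the threshold (adjusted p 0.361, 0.480 and 0.155 in edgeR, where 6.28% of names were called). The composite miR-182;miR-182-5p, with means of 1.59 and 0.181 CPM, was called higher in the glandular part (2.29, adjusted p 0.0326). Without the 12 libraries, none of which was from stomach, miR-182 (0.89, adjusted p 0.0119) and miR-96-5p (1.37, adjusted p 0.00111) were called and miR-183-5p was not (0.69, adjusted p 0.0864). The listed marker of squamous epithelium, miR-205, had a mean of 1074 CPM in the non-glandular part but also 555 CPM in the glandular part. The share of squamous epithelium in the glandular samples was not measured. Kidney cortex and medulla overlapped for each member, and none of the fitted differences of -0.035, -0.29 and -0.27 for miR-183-5p, miR-182 and miR-96-5p was called, against 2.74% of all names.

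Between the sexes, 3 of the 57 pairs of a member and a tissue were called, against 1.49% of all names and tissues, and all 3 were in cerebellum. The females were higher there, by 3.71 ± 0.83 for miR-183-5p, with means of 234 and 19.96 CPM. The difference was 3.21 for miR-182 (1477 and 179 CPM) and 3.31 for miR-96-5p (13.3 and 1.54 CPM), with adjusted p of 0.0223 and 0.0480 in edgeR. These calls rested on the female rat 10: without it the differences were 0.38, 0.29 and -0.14 and no pair in any tissue was called. Without any 1 of the 5 males only miR-183-5p kept its call there, and without rat 7 the 3 members in hippocampus, of which rats 2, 6 and 7 are out of place, were called as well (6 pairs).

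Other microRNAs of epithelia and neurons were counted beside the cluster. Of 8 epithelial microRNAs (the miR-200 family with miR-141 and miR-429, miR-203a, miR-205 and miR-375), all 8 were higher than the rest in whole kidney, kidney medulla, ileum, jejunum, duodenum, pancreas, uterus and both parts of the stomach, where the cluster was also mostly higher and between 15.2% (uterus) and 30.7% (duodenum) of all names were called higher. Without the 12 libraries 6 of the 8 were higher in uterus, and all 8 still were in the other tissues named. The list and the cluster also parted: in uterus miR-96-5p was the only main member called. In kidney cortex 6 of the 8 were higher and 0 lower, and in adrenal 4 were higher and 1 lower, though all 3 members were higher in both. In ovary 7 and in hippocampus 6 of the 8 were higher, where no main member was called, both tissues with libraries out of place. In dorsal root ganglion none of the 8 was higher and 6 were lower, with a median log2 fold change of -5.71, where 3.78% of all names were lower. miR-200b-3p was at 4.50 CPM and miR-375-3p, a microRNA of endocrine cells, at 14.5 CPM in the ganglion, against 4345 CPM in ileum and 37202 CPM in pancreas. Of 6 neuronal microRNAs, 4 were higher in the ganglion and none was lower, with a median of 3.15, beside the 13.3% of all names given above. All 6 were also called higher in duodenum (median 4.21), but without the 12 libraries, 4 of them from duodenum, 2 were higher and 2 lower there (median -0.40), while in the ganglion 4 were higher and none lower. In adrenal 3 were higher and 2 lower with and without those libraries. In the ganglion miR-138-5p reached 8205 CPM and miR-124-3p 392 CPM, while miR-153-3p (8.28 CPM) and miR-128-3p (529 CPM) were not called there. Against the brain none of the 6 was higher and 3 were lower (median -3.26), so the cluster and the neuronal list did not move alike between ganglion and brain. miR-1271 was listed as a relative of miR-96 and miR-182 by seed. The search for the 3 seeds did not return it, but whether its sequence was among the names searched was not checked. That search therefore does not show that its seed differs. miR-1271 was almost not counted, with 1 count of its 5p arm and 9 counts of the opposite, 3p arm in the whole series.

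Across the 23 tissues the members followed each other closely, as a description in which the points share libraries and depth. Pearson's r of log2(mean CPM + 1) was 0.985 for miR-183-5p and miR-182, 0.980 for miR-96-5p and miR-182 and 0.959 for miR-96-5p and miR-183-5p, and it was 0.986, 0.976 and 0.958 over the 22 tissues without the ganglion. Of the 707 single names compared, the nearest to each member were the other 2, miR-183-3p and miR-182-5p. The next was miR-10a-3p (r from 0.67 to 0.70), and without the ganglion a miR-200 member took its place, miR-200a-3p for miR-182 (0.79) and miR-96-5p (0.82) and miR-200b-3p for miR-183-5p (0.75).

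Although levels moved together, the mix of the members differed between tissues, and a ratio of members within a library does not depend on how libraries are scaled. miR-183-5p was 21.2% and 22.1% of miR-182 in the ganglion pools, 14.3% ± 2.01 (SD, n = 10) in brainstem, 13.1% ± 3.01 (n = 10) in cerebrum and 12.2% ± 2.15 (n = 10) in cerebellum. It was 9.72% ± 1.00 in whole kidney and 9.23% ± 0.58 in ileum, and it was lowest in liver with 5.00% ± 0.79 and pancreas with 4.79% ± 0.60 (n = 10 each). The ganglion, brainstem, cerebrum and cerebellum were thus at the upper end, with the ovary (13.4% ± 1.47, n = 4 libraries in place) among them. The hippocampus libraries in place were spread widely, with 12.2% ± 4.72 (n = 7) and a lowest value of 5.81% within the range of liver, and that tissue was not called (0.23, higher in 7 of 10 rats, adjusted p 0.331 in the exact permutation test used below). Neither liver nor pancreas, whose highest libraries were 6.93% and 5.63%, overlapped with brainstem, whose lowest was 10.4%. Each tissue was then set against the mean log2 ratio of the other tissues of the same rat. The difference was 0.65 in brainstem, 0.50 in cerebrum and 0.40 in cerebellum, each higher in 10 of 10 rats, and -0.96 in liver and -1.02 in pancreas, each higher in 0 of 10 rats. Each of these 5 had the smallest p that the exact sign-flip permutation test over 10 rats can give, 0.00195 (adjusted 0.00781 over 48 tests of 3 ratios). Soleus was also lower (-0.58, adjusted p 0.0125), and kidney cortex (0.14, adjusted p 0.0410) and non-glandular stomach (0.14, adjusted p 0.0125) were slightly higher, so that 8 of 20 tissues differed.

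The pancreas stood out again for miR-96-5p. There miR-96-5p was 1.19% ± 0.22 of miR-182 (n = 10), against 0.721% ± 0.146 in whole kidney and 0.535% ± 0.105 in brainstem, and the ganglion pools had the lowest value, 0.245% and 0.266%. Against miR-183-5p the gap was wider, with 24.9% ± 3.92 in pancreas, 15.6% ± 4.69 in liver, 7.47% ± 1.60 in whole kidney, 3.79% ± 0.86 in brainstem and 1.18% ± 0.03 in the ganglion. Relative to miR-182, miR-96-5p was higher in pancreas (0.85 on the log2 scale, in 10 of 10 rats) and lower in brainstem (-0.36, adjusted p 0.0125), glandular stomach (-0.27) and non-glandular stomach (-0.76), the last with 0 of 10 rats higher, and the other 10 of 14 tissues did not pass the exact permutation test. Relative to miR-183-5p it was higher in pancreas (1.84) and liver (1.08), each in 10 of 10 rats, and lower in brainstem (-1.09), non-glandular stomach (-0.98) and glandular stomach (-0.26, adjusted p 0.0496). Pancreas RNA had the lowest integrity numbers of the series, 4.9 to 6.8 with a median of 6.2, against 6 to 9.9 in the other tissues with a value, and their part in these ratios was not tested. The arms of miR-183 could be compared in the 3 kidney tissues only, where the log2 ratio of 5p to 3p had means from 7.08 to 7.23 and no tissue differed, beside 8.65 and 8.96 in the ganglion pools.

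**Figure D4:**
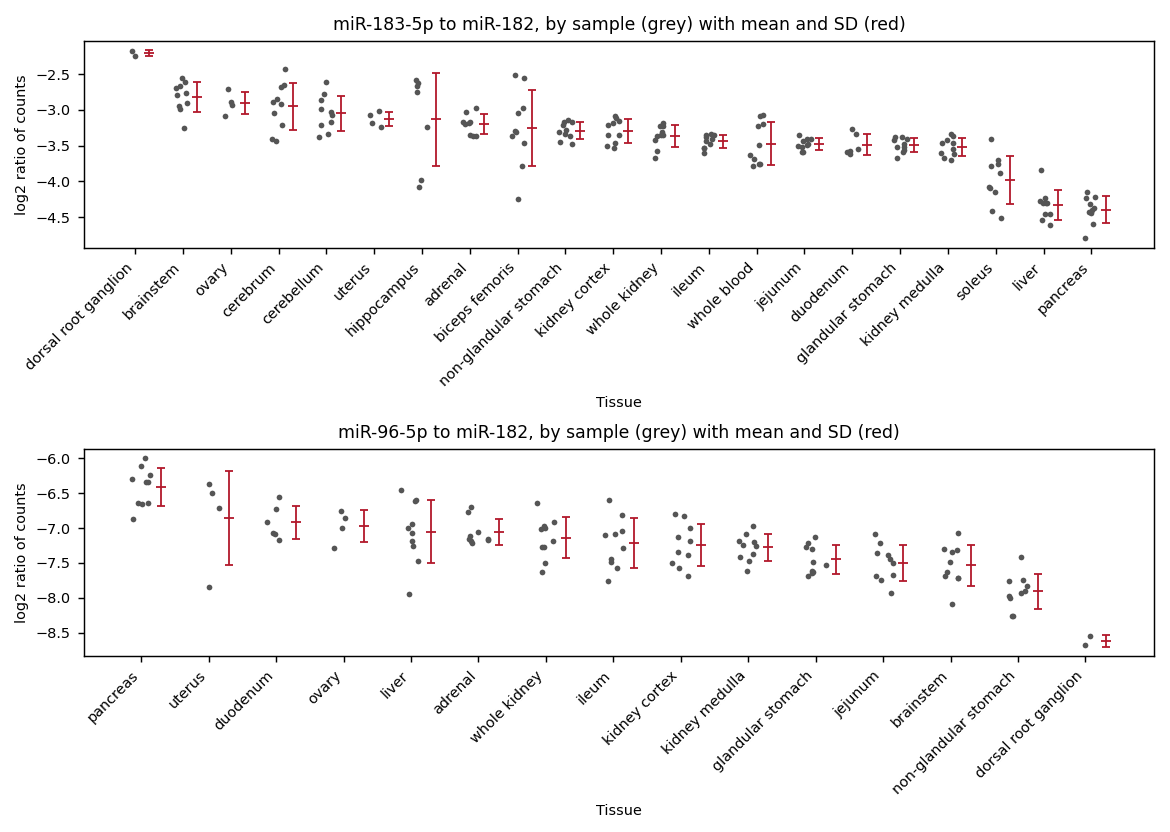
Log2 ratio of miR-183-5p to miR-182 and of miR-96-5p to miR-182 in each sample of each tissue, with mean and SD, without the libraries out of place. Dorsal root ganglion is at the top of the first ratio and at the bottom of the second, and pancreas is at the bottom of the first and at the top of the second.

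The reads of a member did not all have the same ends, and the sequences counted under each name were placed on the RefSeq hairpins. In 14 runs of a single lane 53.6% to 60.7% of the miR-182 counts carried 1 more base at the start, against at most 0.136% in the 404 other runs with enough counts, so the values in this paragraph leave that lane out, a choice made after the data were seen. miR-182 and miR-96-5p began at the same base as the reference sequence in 99.9% of their counts. miR-183-5p did not: 60.6% of its counts began there and 39.2% began 1 base later, which moves the seed by 1 base. The ganglion held 52.1% of these miR-183-5p counts, and outside it 28.1% began 1 base later. The most counted sequence of each kind shows this, in DNA letters with bases 2 to 8 in capitals.
miR-183-5p, reference start: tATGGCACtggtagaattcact
miR-183-5p, 1 base later: aTGGCACTggtagaattcactg
The first made up 25.8% and the second 19.96% of the miR-183-5p counts. The share that began 1 base later was 49.0% and 49.8% in the ganglion pools. It was 34.0% ± 2.42 in uterus (n = 3), 33.6% ± 1.69 in adrenal (n = 9) and 28.4% ± 2.03 in brainstem (n = 9), and it was lowest in pancreas with 20.5% ± 1.86 and liver with 18.5% ± 2.68 (n = 10 each). The pools were thus above all tissues, and the tissues of single rats did not share a common value. The share with the reference start was 8.76 percentage points higher in liver and 6.74 higher in pancreas than in the other tissues of the same rat, each in 10 of 10 rats (adjusted p 0.0105 in the exact permutation test), and 6.56 lower in adrenal (lower in 9 of 10 rats, adjusted p 0.0168). With the lane kept, liver (10.3) and adrenal (-5.00) were called, pancreas was not (5.45, adjusted p 0.211) and jejunum was (2.54, adjusted p 0.0172).

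The other end varied too. Over all samples the most counted miR-182 had 25 bases, with 29.2% of the counts against 24.4% for the form with 24 bases. The ganglion pools, which held 32.5% of the miR-182 counts, carried this rank: outside them the shares were 21.9% and 22.8%.
miR-182, 25 bases: tTTGGCAAtggtagaactcacaccg
It made up 42.3% and 46.8% of miR-182 in the ganglion pools and 34.2% ± 4.24 in brainstem, but 16.5% ± 1.74 in kidney medulla and 11.1% ± 1.14 in pancreas (n = 10 each). The mean length of miR-182 was 24.5 bases in the ganglion, 24.4 ± 0.12 in whole blood and 24.1 ± 0.14 in brainstem, and the shortest was 22.6 ± 0.08 in pancreas. The 25-base form was thus most frequent in the ganglion and least frequent in the pancreas, where the highest library had 12.6% of the 25-base form and the lowest brainstem library had 24.1%. The share of this form differed from the other tissues of the same rat in 10 of 21 tissues without the lane and in 11 with it, and the largest differences were -13.3 percentage points in pancreas (higher in 0 of 10 rats) and 11.1 in brainstem (higher in 9 of 10 rats). In liver 28.4% ± 2.27 of the miR-182 counts ended in bases that are not in the hairpin, against 19.6% ± 2.33 in uterus as the next highest and 5.81% ± 0.999 in cerebellum as the lowest.

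miR-96-5p showed the same order of ganglion, brainstem and pancreas. Its most counted sequence is printed with the fourth, which ends in a base that is not in the hairpin and held 6.51% of the counts.
miR-96-5p, 23 bases: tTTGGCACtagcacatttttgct
miR-96-5p, final A not in the hairpin: tTTGGCACtagcacatttttga
The 23-base form made up 72.4% and 72.6% of miR-96-5p in the ganglion pools, 67.0% ± 3.65 in brainstem (n = 8) and 33.7% ± 3.95 in pancreas (n = 9), and forms with bases beyond the hairpin made up 1.67%, 2.62% and 15.9% in the same tissues. The 23-base form was higher in brainstem (13.2 percentage points, in 8 of 8 rats, adjusted p 0.0305) and lower in pancreas (-24.3, higher in 0 of 9 rats, adjusted p 0.0168) in the exact permutation test, and 6 of the 8 tissues tested did not pass. Pancreas was both the tissue with the shortest forms and the tissue with the lowest RNA integrity numbers given above, and the part of RNA integrity in these shares was not tested. For the ganglion pools no integrity number was given.

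**Figure D5:**
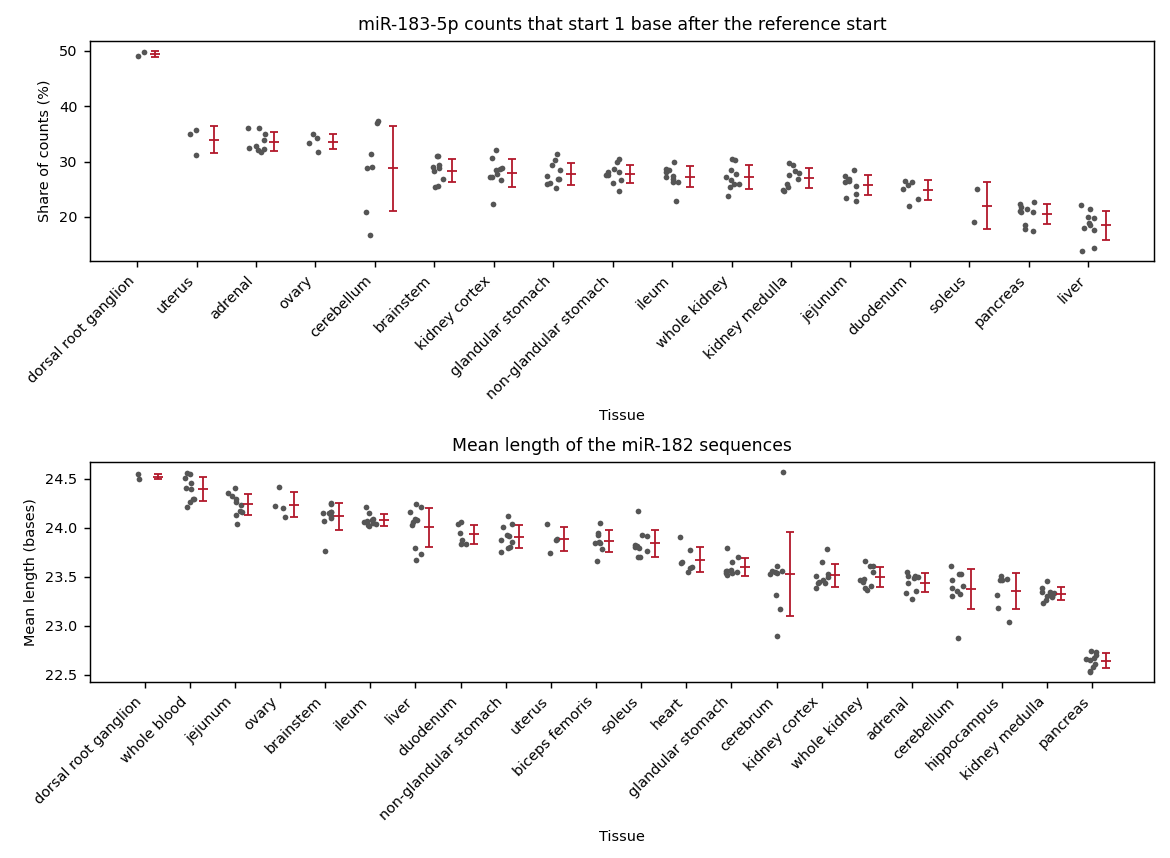
Share of miR-183-5p counts that start 1 base after the reference and mean length of miR-182 in each sample, by tissue, without the lane whose reads carry an extra base. Dorsal root ganglion is highest in the first panel, with 49.0% and 49.8%, and lies within the range of whole blood in the second, with a mean of 24.5 bases, while liver is lowest in the first and pancreas lowest in the second.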

How the data were processed

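Small RNA of 23 tissues was prepared by the authors with a TruSeq small RNA kit and sequenced on an Illumina HiSeq. They trimmed adapters with cutadapt (1.4.1 in the submitters' processing notes), discarded short reads and reads with N, collapsed identical reads and assigned them to miRBase precursors of rat and then of other species with the quantifier of miRDeep2. The deposited values are whole-number read counts per run, not normalized, for microRNA names and for each sequence under a name. A joined name holds reads that fitted more than 1 name. Reads carry no molecular identifiers, so limits from counts cover counting error only. The count of a name also depends on how well its ends ligate, so levels were compared between tissues for the same name, and ratios between members only between tissues.

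Of 458 runs, 14 repeated a lane and were set aside, and 444 were summed to 215 libraries and, with the ganglion libraries of a pool summed, to 207 samples. CPM was the count per 1000000 counts of the library. Tests used edgeR 4.0.16 in R 4.3.3 (quasi-likelihood, upper-quartile scaling, filterByExpr, Benjamini-Hochberg adjustment at 0.05) on all names: all tissues in 1 fit for the contrasts of tissues, and 19 tissues for the sexes. A member counted as called at an adjusted p below 0.05. The samples of a tissue came from separate rats, except that each ganglion sample was a pool. Ratios used a pseudocount of 0.5 and at least 20 counts, and read ends at least 100 counts, in at least 5 rats. They were compared within rats by a two-sided exact sign-flip permutation test with adjustment over all tissues and pairs. Sequences were placed on RefSeq hairpins by their first 15 bases with at most 1 mismatch. Python 3.11.15, numpy 2.4.6, pandas 2.3.3 and matplotlib 3.10.9 were used.

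Samples with the same number came from the same rat, and this is where the pairing comes from. Their deviations from the tissue means had a median r of 0.0139 over 1808 pairs, against -0.00737 between rats. The members and lists were chosen with earlier results of these data known. The named microRNAs are all members, the listed seed relatives, epithelial and neuronal names, and the 5 names with the highest Pearson r to each main member. Alternatives were TMM, DESeq2 1.42.0, no filter, all runs, flow cells apart, each rat or pool left out, the rat as a block and other minimum counts. Leaving out 12 doubted libraries, or a lane with an extra base, was chosen after seeing the data. Of the 12, the brainstem of rat 9 and the cerebellum of rat 10 were in place by profile and were picked with their member values seen. The edgeR fit was tested on 1641 simulated names with a dispersion of 0.2 and 100 names changed 4-fold each way: for the ganglion against the rest, 59% of the raised and 42% of the lowered names were recovered, with 4 false calls.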

Additional observations from a re-analysis of the deposited data

Results flagged for a closer look

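In each tissue with 4 to 10 samples the highest and the lowest value of each main member was compared with the rest of its group, and 13 of 66 groups had a sample with a gap too wide for its group by Dixon's criterion, where chance gives about 1 in 20. They came from 7 samples. The brainstem of rat 9 was low, with 10.2 CPM of miR-183-5p and 98.0 CPM of miR-182. The cerebellum of rat 10 was high, with 1066 CPM of miR-183-5p, 61.2 CPM of miR-96-5p and 6521 CPM of miR-182. The cerebrum of rat 2 was high, with 38.0 CPM of miR-183-5p and 244 CPM of miR-182. The uterus of rat 8 was high in all 3, with 263 CPM of miR-183-5p, 37.8 CPM of miR-96-5p and 3816 CPM of miR-182, and the ovary of rat 11 was high in miR-182 with 3920 CPM; both of these libraries were nearer to another tissue in their whole profile. Single values were high for miR-96-5p in the adrenal of rat 2 (44.5 CPM) and the pancreas of rat 4 (136 CPM).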

How the results depend on the processing

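Of 3197 alternatives over 179 results, 2954 kept direction and call, and the cause of the changes was not tested. Values are log2 fold changes unless named otherwise. The ganglion calls of the 3 main members held under every alternative run. miR-96-5p in liver turned to -0.058 under DESeq2. miR-182 in brainstem, near 0 in the fit reported, was 1.05 under DESeq2, 0.92 under TMM and 0.51 without the 12 doubted libraries. Without the 10 libraries out of place the cerebellum against the other brain regions was 2.35 for miR-183-5p, 2.26 for miR-96-5p and 2.17 for miR-182, and miR-96-5p between the parts of the stomach was 1.37. Without the 12 libraries the stomach values were 1.37 for miR-96-5p and 0.89 for miR-182, 0 pairs differed between the sexes, and miR-96-5p in cerebellum was -0.10 between them.

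Leaving out each rat in turn, the cerebellum against the other brain regions ran from -1.79 to 1.16 for miR-183-5p, from -1.78 to 1.06 for miR-96-5p and from -1.70 to 0.85 for miR-182, each turning negative without rat 10. The pairs that differed between the sexes ran from 0 to 6, with 0 without rat 10, 1 without each of rats 2 to 6 and 6 without rat 7, when the hippocampus was added. miR-96-5p in cerebellum between the sexes ran from -0.14 to 3.65. Tissues with a different share of the most counted miR-183-5p, 7 in all libraries, ran from 4 to 8.

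With the rat as a block, 77 of 81 results of the tissue contrasts kept their call, and the 4 that changed are given with their values in the report, among them miR-183-5p in brainstem at 0.95. Without pairing by rat, the ratio of miR-183-5p to miR-182 lost its call in kidney cortex and non-glandular stomach (both 0.14), and the ratio of miR-96-5p to miR-182 lost it in brainstem and glandular stomach and gained it in duodenum (0.39). The ratio of miR-96-5p to miR-183-5p lost it in glandular stomach (-0.26). No block could be made between the sexes because each rat has 1 sex.

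With at least 50 counts, tissues that differed numbered 3 for the ratio of miR-96-5p to miR-183-5p (5 in the report), 4 for the most counted miR-183-5p, 1 for the start of miR-96-5p (0 otherwise) and 1 for its most counted form (2 otherwise). Without the 12 libraries 4 tissues differed in the most counted miR-183-5p. The start of miR-182 differed in 8 tissues with the lane that carries an extra base and in 1 without it. Without the lane its differences in percentage points were 0.090 in biceps femoris, -0.075 in cerebellum, -0.022 in jejunum, -0.0088 in kidney cortex, -0.00086 in liver and -0.0021 in non-glandular stomach. With the lane they ran, leaving out each rat, from -4.01 to 2.87 in biceps femoris, -3.19 to 2.87 in brainstem, -3.20 to 2.86 in glandular stomach, -4.89 to 3.01 in heart, -2.74 to 2.57 in ileum, -2.89 to 2.46 in kidney medulla, -2.96 to 2.88 in pancreas, -2.82 to 2.51 in soleus and -3.13 to 2.48 in whole kidney. Depth limits miR-96-5p most, which had counts of 0 in heart, muscle, blood, testis and cerebrum.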

Other observations

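The brainstem of rat 9 stood apart in many names besides the cluster. There 117 of 375 names compared were above and 89 were below all other brainstem samples, and miR-7a-5p was at 373 CPM against 67.6 to 112 CPM. For the cerebellum of rat 10 only 18 of 320 names were above and 27 were below all other cerebellum samples. There miR-1298 (1163 CPM) and miR-448-3p (242 CPM) were above the medians of the other rats (29.0 and 6.07 CPM) but within their range, which reached 1414 and 266 CPM.

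Each library was sequenced on a first flow cell, with a median of 594027 counts a run, and again on others, with a median of 4003313. For miR-182 the levels from the 2 parts were within 2-fold in 200 libraries, while 3 were more than 2-fold higher and 2 more than 2-fold lower on the first flow cell. The widest gaps were 380 against 35.3 CPM in the cerebrum of rat 9 and 172 against 27.4 CPM in the heart of rat 11, both tissues in which the member is low.

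Within a tissue the members also followed each other from rat to rat, as a description over 8 to 10 rats that share library and depth: the median r was 0.94 for miR-183-5p and miR-182 over 16 tissues, 0.75 for miR-96-5p and miR-182 and 0.77 for miR-96-5p and miR-183-5p, the last 2 over 11 tissues.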
